A study of Mus musculus with 4 samples.

Results

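Collagens are the trimeric proteins of the extracellular matrix, and each gene of the family encodes 1 of the chains that wind into a triple helix. The family was taken as all probe sets (groups of array probes for 1 transcript) whose only platform gene symbol is Col, a number, the letter a and a number. This gave 82 probe sets for 42 collagen genes among 45037 probe sets other than controls, of which 34945 named 18193 genes. Of the 82, 38 probe sets for 22 genes lay in the brighter 50% of the array and were tested, and 20 genes had no probe set bright enough.

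The samples were immortalised mouse embryonic fibroblasts (MEFs) carrying a loxP-flanked PA1 allele. PA1 -/- cells had been infected with a retrovirus expressing Cre recombinase, an enzyme that cuts out the DNA lying between such sites (2 arrays). PA1 +/+ cells were the same conditional cells infected with the retroviral vector alone (2 arrays), and both had been through 2 rounds of puromycin selection. PA1 was read as Pagr1a, which encodes a protein of histone methyltransferase complexes that contain PTIP. Within a genotype the arrays are numbered 1 and 2. No label ties the numbers to separate cultures, so the spread behind every p-value here is that of these arrays and may be technical. Whether the cells were pools or clones is not stated either.

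Fibroblasts are the main makers of fibrillar collagens, which assemble into the cross-striated fibres of skin, tendon and bone. Type IV chains build the sheet-like network of basement membranes, type VI chains form beaded microfibrils around cells, and FACITs (fibril-associated collagens with interrupted triple helices) sit on the surface of fibrils. New chains are hydroxylated, folded and secreted as procollagen, trimmed at their ends and cross-linked outside the cell.

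Values below are MAS5 signals, given for number 1 and then number 2 of each genotype, and differences are on the log2(signal + 9.96) scale, PA1 -/- minus PA1 +/+. Levels of different collagen genes were not compared, since probe sets differ in brightness. Sums over markers add signals of unlike probe sets, so the brightest markers weigh most in them. Pagr1a read 108 and 113 in PA1 -/- cells, against 1340.3 and 1389 in PA1 +/+ cells. Of 9 fibroblast markers 8 were in the brighter 50% of the array, and Fap, the ninth, read at most 46.2. Their summed signal, Fap included, was 47166 and 67600.0 in PA1 -/- cells, against 55316 and 77781 in PA1 +/+ cells. Among them Prrx1, which encodes a mesenchymal transcription factor, read 1160.4 and 69.1 in PA1 -/- cells, against 2849.6 and 295 in PA1 +/+ cells, with differences of -1.29 at number 1 and -1.95 at number 2. Pdgfrb, which encodes a growth factor receptor, read 1571 and 2807 in PA1 -/- cells, against 3694 and 3482 in PA1 +/+ cells, lower in PA1 -/- without overlap, with differences of -1.23 at number 1 and -0.31 at number 2. Twist1 went the other way without overlap, at 802 and 916 in PA1 -/- cells, against 755 and 763 in PA1 +/+ cells. The other tested markers overlapped, with mean differences of -0.15 for Vim, -0.09 for Fn1, -0.04 for Ddr2, -0.40 for Thy1 and -0.51 for S100a4. The part of these markers in the collagen values was not tested. Markers of endothelial and skeletal muscle cells stayed at or below 88.5 on every array, those of macrophages at or below 224, epithelial cells 298 and adipocytes 462. The summed signal of smooth muscle or myofibroblast markers was 36607 and 34341 in PA1 -/- cells, against 30105 and 33598 in PA1 +/+ cells, and its part in the collagen values was not tested. The arrays correlated at 0.971 and 0.977 between genotypes of the same number, but at 0.920 between the PA1 -/- arrays and 0.918 between the PA1 +/+ arrays. Differences are therefore given within each number as well as over both. Fewer collagen-making cells and less RNA per cell cannot be told apart in such bulk samples.

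Across the 22 tested collagen genes, 16 had a mean below 0, lower in PA1 -/- cells, as had 5004 of all 10714 tested genes. Col6a1, Col6a2, Col11a1 and Col18a1 lay beyond -0.5 at both numbers. The median difference was -0.34 over collagen genes and 0.02 over all 10714 tested genes. Within number 1 the collagen median was -0.05, against 0.04 for all genes, and within number 2 it was -0.34, against 0.00. Leaving out 1 array lets the gap between numbers into the difference. The collagen median was then -0.78 and 0.20 without the PA1 -/- arrays numbered 1 and 2, and -0.16 and -0.67 without the PA1 +/+ arrays numbered 1 and 2. Among the 22, PA1 -/- was the lower genotype at both numbers for 11 (29.3% of all genes) and the higher at both for 3 (33.9% of all genes), while 8 had opposite signs. The 2 PA1 -/- values lay below both PA1 +/+ values for 5 collagen genes (11.3% of all genes) and above both for 1 (15.0% of all genes). The 11 and the 5 include Col14a1, which passed the brightness filter only through its PA1 +/+ signals.

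No collagen passed limma with genotype as the only term, at an adjusted p below 0.05 over all tested probe sets. The count was 0 of 38 collagen probe sets and 0 of 22519 in all (0.0%), and the adjusted p was 0.9998 for every collagen gene. This fit counts the gap between numbers as spread. Even Pagr1a, at -3.51, had an adjusted limma p of 0.8756 in it, so a count of 0 says little about collagens. The fit with the number as a block is given with the alternative settings. At an unadjusted p under 0.05 there were 3 collagen genes, Col6a1, Col6a2 and Col18a1, where 2.16% of all genes were. With 2 arrays a genotype, 0.333 is the smallest p that an exact permutation test allows.

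**Figure D1:**
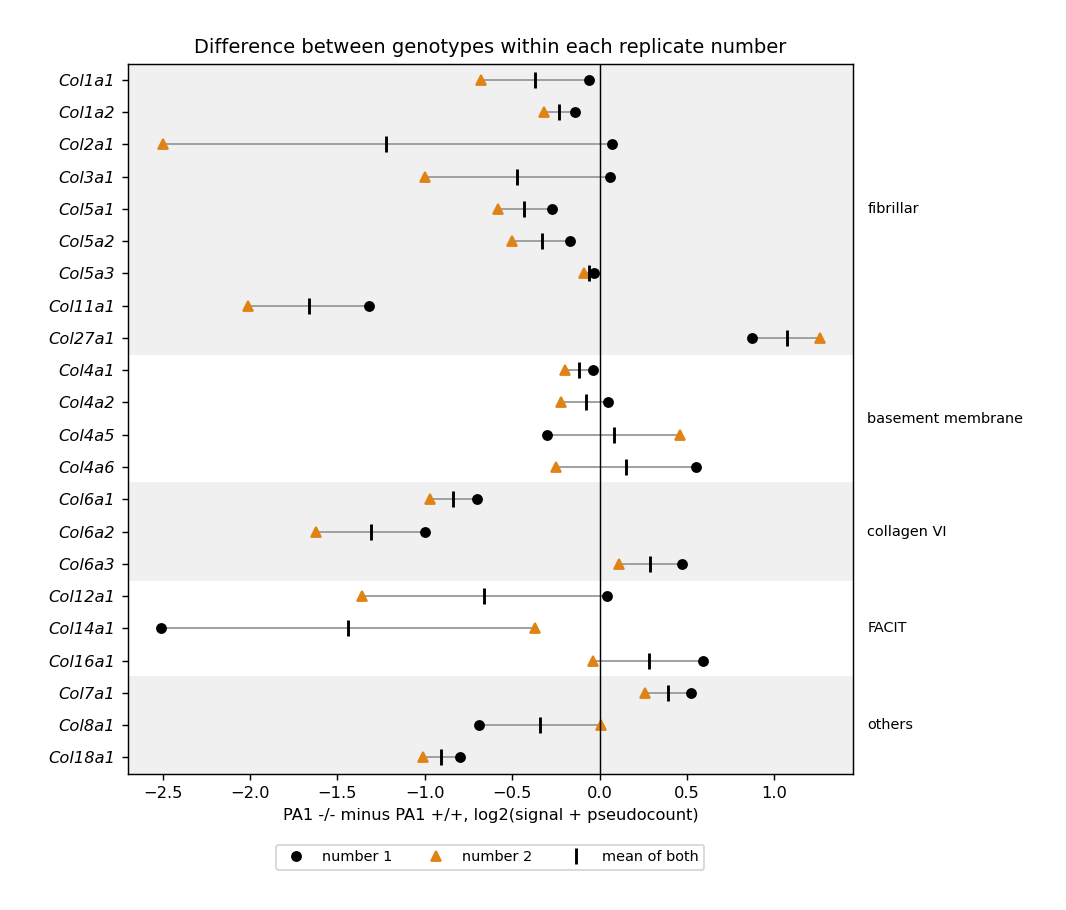
Difference between PA1 -/- and PA1 +/+ cells for each tested collagen gene, on the log2(signal + 9.96) scale, within number 1 (circles) and number 2 (triangles), with the mean as a tick, grouped by class from fibrillar (top) to others (bottom). Col11a1, Col6a2, Col6a1 and Col18a1 lie left of -0.5 at both numbers, Col27a1 lies right of 0.5 at both, and Col2a1, Col3a1 and Col12a1 differ mainly at number 2.

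The upstream sequences of the type VI chains, of Col18a1 and of Col11a1 are printed because Col6a1, Col6a2 and Col18a1 had the lowest p-values and Col11a1 the largest difference, with Col6a3 as the remaining classical type VI chain. Each line gives the 250 bases before the outermost RefSeq transcription start (GRCm38.p6), 5′ to 3′ on the gene's strand. Capitals mark matches on either strand to CCAAT (the CCAAT box), GGGCGG (the GC box bound by Sp1), TATAAA (the TATA box) or TGANTCA (the AP-1 site).
Col6a1, chr10:76726045-76726294 (- strand): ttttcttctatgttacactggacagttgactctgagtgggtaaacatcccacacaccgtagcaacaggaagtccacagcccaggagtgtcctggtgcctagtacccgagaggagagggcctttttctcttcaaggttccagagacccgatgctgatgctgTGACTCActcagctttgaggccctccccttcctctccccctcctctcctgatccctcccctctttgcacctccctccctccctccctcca
Col6a2, chr10:76623631-76623880 (- strand): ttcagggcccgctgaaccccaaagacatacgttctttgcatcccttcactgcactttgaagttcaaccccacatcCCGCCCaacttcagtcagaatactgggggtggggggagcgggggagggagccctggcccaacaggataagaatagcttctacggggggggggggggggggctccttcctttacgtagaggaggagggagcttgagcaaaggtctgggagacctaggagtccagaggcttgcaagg
Col6a3, chr1:90843972-90844221 (- strand): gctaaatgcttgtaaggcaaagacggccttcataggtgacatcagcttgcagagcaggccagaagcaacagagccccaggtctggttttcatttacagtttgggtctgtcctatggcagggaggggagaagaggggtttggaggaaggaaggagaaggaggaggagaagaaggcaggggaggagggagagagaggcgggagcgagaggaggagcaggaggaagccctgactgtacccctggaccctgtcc
Col18a1, chr10:77166531-77166780 (- strand): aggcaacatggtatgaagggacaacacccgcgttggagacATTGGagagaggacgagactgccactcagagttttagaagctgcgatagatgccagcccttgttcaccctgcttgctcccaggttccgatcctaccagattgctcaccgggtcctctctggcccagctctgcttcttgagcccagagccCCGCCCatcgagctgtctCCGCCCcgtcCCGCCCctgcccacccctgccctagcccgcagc
Col11a1, chr3:114030290-114030539 (+ strand): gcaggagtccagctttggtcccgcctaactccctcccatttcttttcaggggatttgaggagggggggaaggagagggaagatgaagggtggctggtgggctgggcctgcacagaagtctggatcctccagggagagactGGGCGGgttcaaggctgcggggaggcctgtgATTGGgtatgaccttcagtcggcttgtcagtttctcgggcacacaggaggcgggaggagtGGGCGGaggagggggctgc

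The 5 windows were unlike in these letters. The Col6a1 window held 1 AP-1 match, 90 bases before the start, and none of the other motifs. The Col6a2 window held 1 GC box, and the Col6a3 window held no match. Col18a1 had 3 GC boxes within 61 bases of its start and 1 CCAAT box, and Col11a1 had 2 GC boxes and 1 CCAAT box. No window held TATAAA. Among all 32851 RefSeq windows of this length, 33.8% held CCAAT, 32.7% GGGCGG, 12.4% TATAAA and 6.7% TGANTCA. The 36 windows of 33 measured collagen genes held them in 36.1%, 58.3%, 13.9% and 2.8%. Their median GC content was 59.0%, against 52.4% over all windows. These matches describe the letters only.

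Collagen VI, whose 3 classical chains are the products of Col6a1, Col6a2 and Col6a3, divided by gene. Col6a1 read 2183 and 2239 in PA1 -/- cells, against 3551 and 4407 in PA1 +/+ cells, which is 2211 ± 40.0 in PA1 -/- and 3979 ± 605 in PA1 +/+ cells (mean ± SD, n = 2 each). Both PA1 -/- arrays were below both PA1 +/+ arrays. The differences were -0.70 at number 1 and -0.97 at number 2, with a mean of -0.84 (SE 0.212). Col6a2 read 2175 and 1189 in PA1 -/- cells, against 4358 and 3679 in PA1 +/+ cells, or 1682 ± 697 in PA1 -/- and 4019 ± 480.1 in PA1 +/+ cells (mean ± SD, n = 2 each). It too was lower on both PA1 -/- arrays, and the differences were -1.0 at number 1 and -1.62 at number 2, with a mean of -1.31 (SE 0.349). A second Col6a2 probe set read 1032 and 799.8 in PA1 -/-, against 1722 and 1671 in PA1 +/+ cells and differed by -0.89. Unadjusted limma p-values were 0.0121 for Col6a1 and 0.0146 for Col6a2.

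Col6a3, which encodes the longest of these chains, did not separate by genotype. It read 648 and 4914 in PA1 -/- cells, against 466 and 4557 in PA1 +/+ cells. The genotypes overlapped, and the mean difference was 0.29 (SE 1.43), with 0.47 at number 1 and 0.11 at number 2. The larger gap lay between the numbers: number 2 exceeded number 1 by 2.90 in PA1 -/- and 3.26 in PA1 +/+ cells, while for Col6a1 the same gap was 0.04 in PA1 -/- and 0.31 in PA1 +/+ cells. The later type VI chains were dim. Col6a5 had 1 probe set at 16.8 and 12.1 in PA1 -/-, against 0.895 and 3.50 in PA1 +/+ cells, and the 2 probe sets of Col6a4 read at most 23.5.

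**Figure D2:**
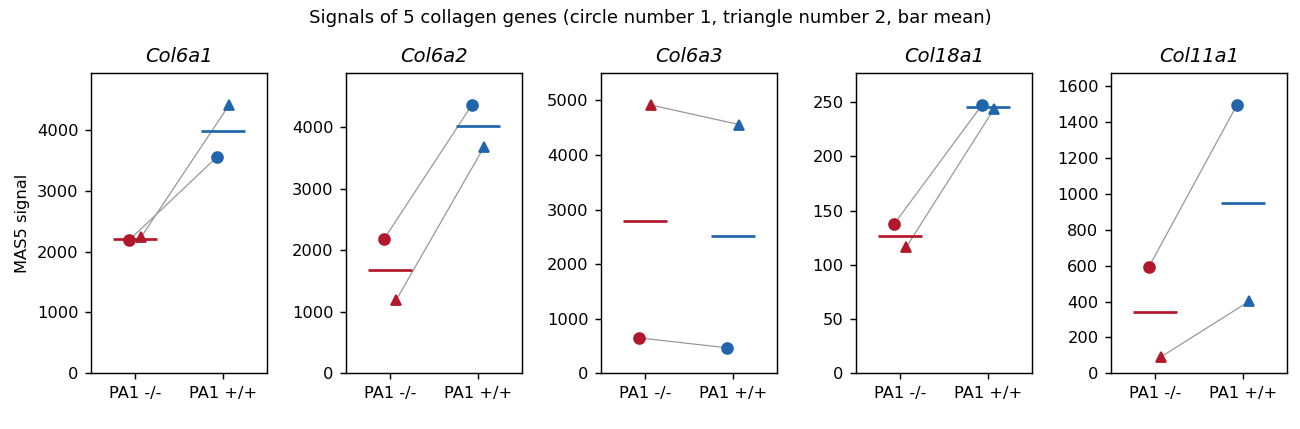
MAS5 signal of Col6a1, Col6a2, Col6a3, Col18a1 and Col11a1 in PA1 -/- (left) and PA1 +/+ (right) arrays, with circles for number 1, triangles for number 2, bars for the mean of 2 arrays and grey lines joining arrays of the same number. Each panel has its own linear axis from 0. Col6a1, Col6a2 and Col18a1 separate by genotype, Col6a3 separates by number, and Col11a1 is lower in PA1 -/- at each number while its genotypes overlap.

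Among fibrillar collagens, 8 of 9 tested genes had a mean difference below 0, as had 5004 of all 10714 tested genes. The class median was -0.37 (0.16 without the PA1 -/- array numbered 2), with -0.06 at number 1 and -0.58 at number 2. PA1 -/- was the lower at both numbers for 6 of 9 (29.3% of all genes). Col11a1, which encodes a minor chain that seeds thin fibrils and is prominent in cartilage, had the largest gap. It read 593 and 92.1 in PA1 -/- cells, against 1495 and 401 in PA1 +/+ cells. PA1 -/- was lower within each number, with differences of -1.32 at number 1 and -2.01 at number 2, yet the PA1 -/- array numbered 1 exceeded the PA1 +/+ array numbered 2, so the groups overlapped. The mean difference was -1.66 (SE 1.06), and a second probe set, at 398 and 34.8 in PA1 -/-, against 1532 and 199 in PA1 +/+ cells, gave -2.07. Among the 22 tested collagen genes, Col11a1 alone was at least 2-fold lower at both numbers on the scale used for differences. The same held for 0.831% of all tested genes. Col6a2 fell just short of this on that scale at number 1, where its difference rounded to -1.0. Its signals there, 2175 in PA1 -/- against 4358 in PA1 +/+ cells, were just over 2-fold apart.

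The major fibrillar chains differed less. Col1a1 read 11395 and 4037 in PA1 -/- cells, against 11898 and 6488 in PA1 +/+ cells, with differences of -0.06 at number 1 and -0.68 at number 2. Its partner in the type I trimer, Col1a2, read 16542 and 16831 in PA1 -/- cells, against 18183 and 20947 in PA1 +/+ cells. Both PA1 -/- values of Col1a2 were below both PA1 +/+ values, with a mean difference of -0.23 (SE 0.132). Other tested probe sets of Col1a2 gave -0.61, from 10081 and 6853 in PA1 -/-, against 17114 and 9381 in PA1 +/+ cells, and -0.71, from 612 and 803 in PA1 -/-, against 1337 and 992 in PA1 +/+ cells. They put the PA1 -/- cells lower at both numbers too. The second probe set of Col1a1 read 4401 and 1234 in PA1 -/-, against 7917 and 1361 in PA1 +/+ cells, with differences of -0.85 at number 1 and -0.14 at number 2.

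Col3a1, which encodes the type III homotrimer of soft tissues, read 8317 and 3471 in PA1 -/- cells, against 7966 and 6967 in PA1 +/+ cells. On this probe set only the PA1 -/- array numbered 2 stood apart, and the differences were 0.06 at number 1 and -1.0 at number 2. A second Col3a1 probe set read 632 and 127 in PA1 -/-, against 807 and 223 in PA1 +/+ cells. There number 2 was the lower in both genotypes, and the differences were -0.35 at number 1 and -0.76 at number 2. Col5a1, whose chain sets the diameter of type I fibrils, read 4894 and 2168 in PA1 -/- cells, against 5909 and 3248 in PA1 +/+ cells. Col5a2, the neighbour of Col3a1 on chromosome 1 with 0 protein-coding genes between them, read 13245 and 4156 in PA1 -/- cells, against 14862 and 5882 in PA1 +/+ cells. For both type V genes the arrays fell into pairs by number rather than by genotype, with number 2 the lower. Their differences were -0.27 at number 1 and -0.58 at number 2 for Col5a1 and -0.17 at number 1 and -0.50 at number 2 for Col5a2. Further probe sets of Col5a1 gave means of -0.65 and -0.48, and that of Col5a2 gave -0.78. Col5a3, a type V chain of restricted expression, read 126 and 42.5 in PA1 -/- cells, against 128 and 45.8 in PA1 +/+ cells, with a mean difference of -0.06 (SE 0.685).

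Col2a1, the major collagen of cartilage, read 1201 and 275 in PA1 -/- cells, against 1146 and 1598 in PA1 +/+ cells. Number 1 showed almost no gap, at 0.07, while the difference at number 2 was -2.50, the PA1 -/- array numbered 2 being the low one. Markers of chondrocytes were low or mixed beside Col2a1 and Col11a1. The regulator gene Sox9 read 529.9 and 317 in PA1 -/- cells, against 448 and 433 in PA1 +/+ cells, and Acan, which encodes the cartilage proteoglycan aggrecan, read 118 and 27.6 in PA1 -/- cells, against 328 and 12.1 in PA1 +/+ cells. Comp ranged from 38.6 to 54.6, and Matn1 and Hapln1 stayed at or below 20.3. The summed signal of the 5 markers was 698 and 400.0 in PA1 -/- cells, against 846 and 536 in PA1 +/+ cells. Their part in the collagen differences was not tested. Col27a1, a fibrillar collagen of developing cartilage, was the exception in direction. It read 458 and 63.5 in PA1 -/- cells, against 245 and 20.8 in PA1 +/+ cells, higher in PA1 -/- at each number (differences of 0.87 at number 1 and 1.26 at number 2), with overlapping groups and a mean of 1.07 (SE 1.34). A second probe set, at 268 and 74.2 in PA1 -/-, against 193 and 26.5 in PA1 +/+ cells, gave 0.83.

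The tested type IV chains, taken here as the basement membrane class without Col18a1, showed no genotype difference beyond the spread between numbers. Their median was 0.00 over 4 tested genes, and 3 of the 4 had opposite signs at the 2 numbers. Col4a1 and Col4a2, whose chains form the common type IV trimer and which lie next to each other on chromosome 8, had like patterns. Col4a1 read 4289.7 and 1847 in PA1 -/-, against 4422 and 2119.7 in PA1 +/+ cells. Col4a2 read 2207 and 1097 in PA1 -/-, against 2127 and 1275 in PA1 +/+ cells. Number 2 was lower than number 1 in both genotypes, and the mean genotype differences were -0.12 (SE 0.553) and -0.08 (SE 0.454). A second Col4a1 probe set went the other way, at 0.27. Col4a5 and Col4a6, whose chains join other type IV trimers, are neighbours on the X chromosome. Col4a5 read 1023 and 767 in PA1 -/-, against 1261 and 555 in PA1 +/+ cells, with a mean difference of 0.08 (SE 0.463). Col4a6 read 127 and 54.4 in PA1 -/-, against 83.7 and 66.4 in PA1 +/+ cells, with a mean difference of 0.15 (SE 0.475). The groups overlapped for all 4 genes.

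FACITs gave 3 tested genes with differing patterns. Col14a1 (collagen XIV, found on type I fibrils of skin and tendon) read 38.2 and 54.2 in PA1 -/- cells, against 264 and 72.8 in PA1 +/+ cells. Both PA1 -/- values were the lower ones, but the gap was -2.51 at number 1 and -0.37 at number 2, since the PA1 +/+ array numbered 1 stood above the others. Both PA1 -/- signals lay under the filter boundary of 62.8, so Col14a1 was tested only through its PA1 +/+ signals. Its place among the genes lower without overlap, lower at both numbers and below 0, and in the medians, therefore supports nothing. The mean was -1.44 (SE 0.649), and a dimmer probe set read 17.7 and 5.48 in PA1 -/-, against 104 and 10.7 in PA1 +/+ cells. Col12a1, another fibril-surface collagen, read 1428 and 399.5 in PA1 -/- cells, against 1385 and 1038 in PA1 +/+ cells. On this probe set the PA1 -/- array numbered 2 alone was low. A second tested Col12a1 probe set read 598 and 183 in PA1 -/-, against 367 and 364 in PA1 +/+ cells. There the differences were 0.69 at number 1 and -0.95 at number 2. Col16a1 read 1492 and 878 in PA1 -/- cells, against 989 and 901 in PA1 +/+ cells, with PA1 -/- higher at number 1 only. Mean differences were -0.66 (SE 0.644) for the first Col12a1 probe set, -0.13 (SE 0.591) for the second and 0.28 (SE 0.336) for Col16a1.

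Of the remaining tested collagens, Col18a1 and Col7a1 separated by genotype in opposite directions. Col18a1, which encodes a basement membrane collagen whose end fragment is endostatin, read 137 and 116 in PA1 -/- cells, against 247 and 244 in PA1 +/+ cells. Both PA1 -/- arrays were lower, with differences of -0.80 at number 1 and -1.01 at number 2, a mean of -0.91 (SE 0.277) and an unadjusted limma p of 0.0239. A second probe set, at 91.6 and 70.4 in PA1 -/-, against 132 and 223 in PA1 +/+ cells, gave -1.01. Col7a1, the anchoring fibril collagen that ties epidermis to dermis, read 1780.1 and 1342 in PA1 -/- cells, against 1243 and 1116 in PA1 +/+ cells. It was the 1 tested collagen gene whose PA1 -/- values both lay above both PA1 +/+ values, with a mean difference of 0.39 (SE 0.259). Col8a1, a short-chain collagen of vessel walls and cornea, read 1563 and 3302 in PA1 -/- cells, against 2535 and 3286 in PA1 +/+ cells, with differences of -0.69 at number 1 and 0.01 at number 2. Its 3 probe sets differed in sign, at -0.34, -0.10 and 0.07.

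**Figure D3:**
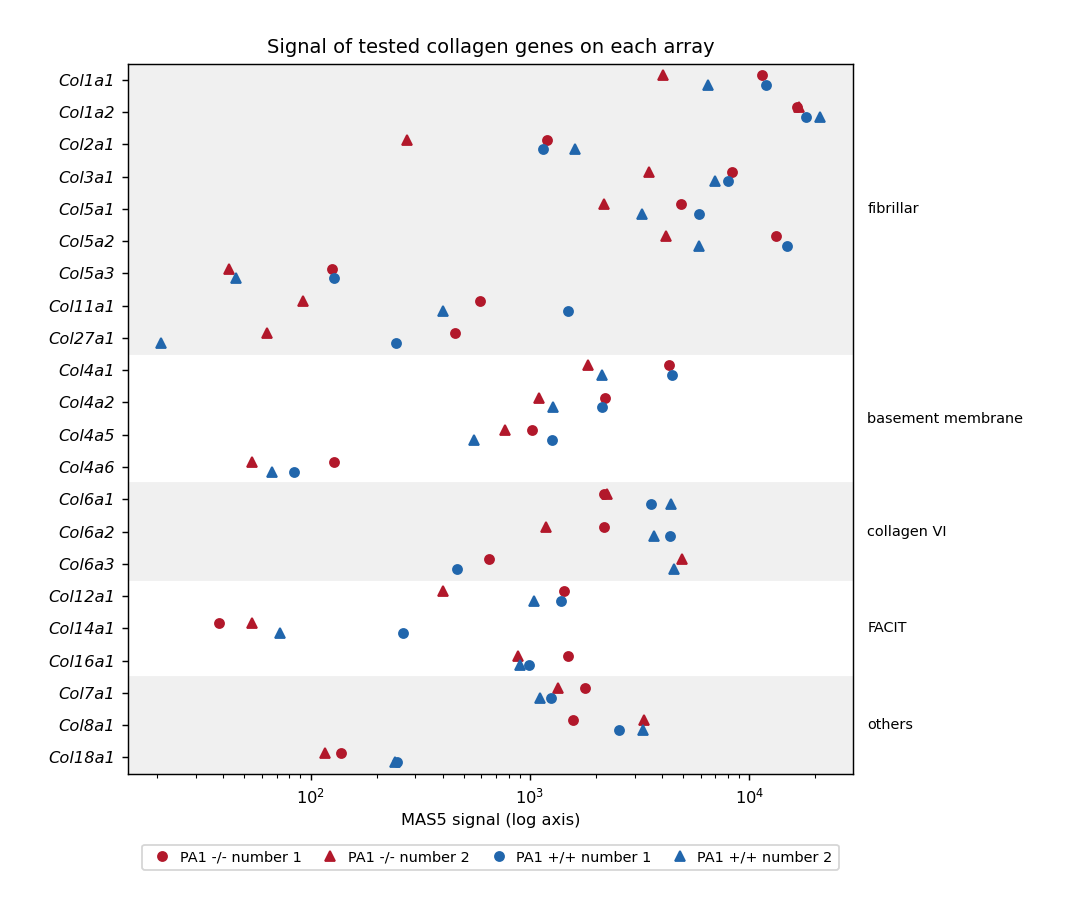
MAS5 signal (log axis) of the 22 tested collagen genes on each array, with PA1 -/- in red and PA1 +/+ in blue, circles for number 1 and triangles for number 2, and classes from fibrillar (top) to others (bottom). For Col5a1, Col5a2, Col4a1 and Col6a3 same-shaped points lie together, and for Col6a1, Col6a2 and Col18a1 same-coloured points do. Positions of different genes are not comparable.

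The gap between numbers exceeded that between genotypes for 15 of the 22 collagen genes, and for 67.5% of all tested genes. In both genotypes number 2 was lower than number 1 for 16 collagen genes, where 39.0% of all genes were, and at least 2-fold lower for 5, where 4.52% were. These 5 were Col5a2, Col5a3, Col11a1, Col27a1 and Col4a1. The median of number 2 minus number 1 was -1.05 over collagen genes in PA1 -/- and -0.35 in PA1 +/+ cells, against -0.03 and 0.02 over all genes. What the numbers stand for is not given in the labels.

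**Figure D4:**
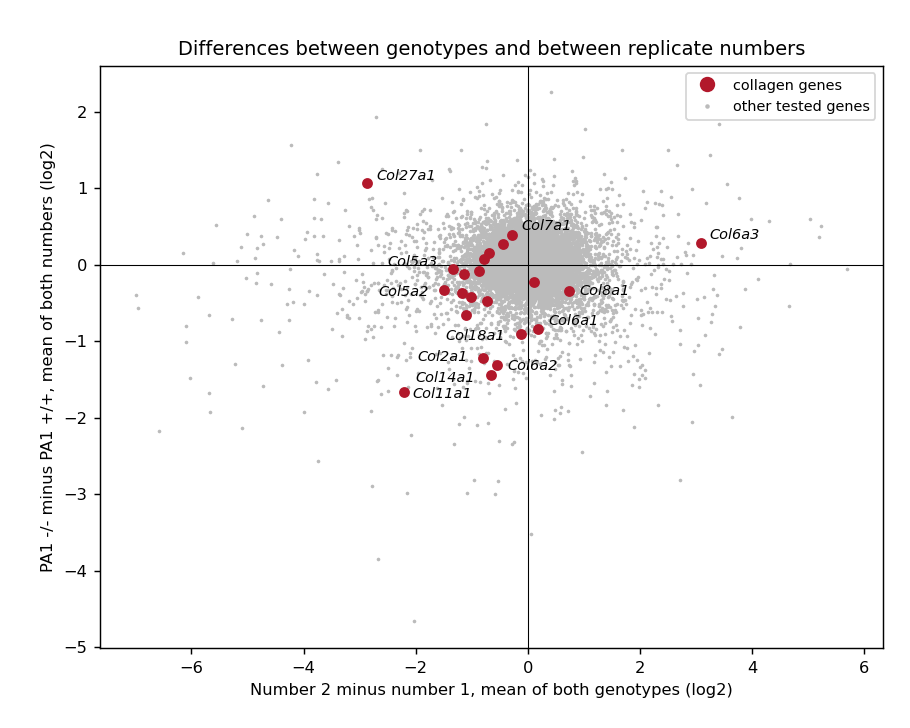
Each point is 1 tested gene, with number 2 minus number 1 (mean of both genotypes) on the horizontal axis and PA1 -/- minus PA1 +/+ (mean of both numbers) on the vertical axis, both on the log2(signal + 9.96) scale. Collagen genes (red) lie mostly left of 0 among all other genes (grey). Col6a1, Col6a2 and Col18a1 lie low and near the centre, Col6a3 lies far right near 0, and Col11a1 and Col27a1 lie left, below and above 0.

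Col6a2, Col6a1 and Col18a1, the 3 collagen genes with the lowest unadjusted p, lie close together on chromosome 10. No protein-coding gene separates Col6a2 from Col6a1 in RefSeq, and 2, Pcbp3 and Slc19a1, separate Col6a1 from Col18a1. Pcbp3 read 1421 and 892 in PA1 -/- cells, against 1356 and 1504 in PA1 +/+ cells, and Slc19a1 read 1331 and 1067 in PA1 -/-, against 950.2 and 1252 in PA1 +/+ cells, and the genotypes overlapped for both. Over this stretch and 6 protein-coding genes on each side, 8 other genes were tested. Their median difference was -0.08, with a range from -0.54 for Lss to 0.26 for Mcm3ap, and 2 were lower and 1 higher without overlap, where 11.3% and 15.0% of all tested genes were. Lss, which encodes lanosterol synthase, read 1126 and 1212 in PA1 -/- cells, against 1349 and 2159 in PA1 +/+ cells. The clustering was noticed after the values were seen.

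**Figure D5:**
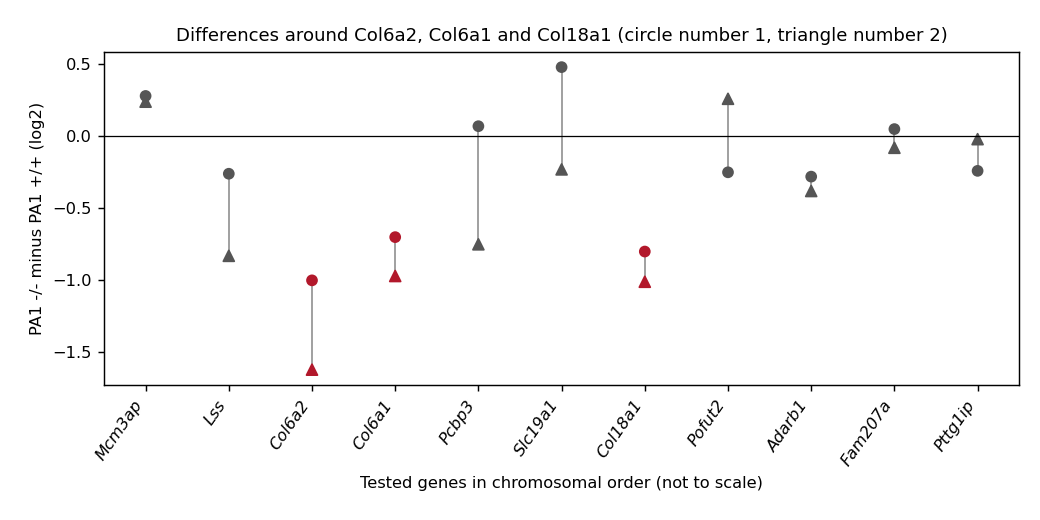
Difference between PA1 -/- and PA1 +/+ cells (log2) within number 1 (circles) and number 2 (triangles) for tested genes in chromosomal order around Col6a2, Col6a1 and Col18a1 (red). The 3 collagen genes lie at or below -0.70 at both numbers, and of the other genes (grey) Pcbp3 and Lss reach below -0.70 at number 2 only.

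The tested genes had 6 further probe sets under the brightness filter, among them 1 of Col4a6 at 47.1 and 36.8 in PA1 -/-, against 85.0 and 60.1 in PA1 +/+ cells, lower in PA1 -/- without overlap. Of 13 tested genes with more than 1 tested probe set, only Col4a1 and Col8a1 had probe sets that differed in sign.

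The 20 collagen genes under the brightness filter had 38 probe sets, of which 37 stayed below a signal of 100 on all arrays. The exception was Col8a2, the partner of Col8a1, at 112 and 10.5 in PA1 -/-, against 241 and 18.7 in PA1 +/+ cells. Of the 38, 6 were lower and 3 higher in PA1 -/- without overlap, where 16.0% and 15.6% of all probe sets under the filter were. Col15a1, which encodes a multiplexin related to collagen XVIII, read 4.84 and 6.26 in PA1 -/- cells, against 35.0 and 47.7 in PA1 +/+ cells. Col24a1, a fibrillar chain, read 3.15 and 0.828 in PA1 -/- cells, against 13.8 and 14.1 in PA1 +/+ cells. Col9a2, a chain of the cartilage FACIT, read 7.20 and 11.7 in PA1 -/-, against 35.7 and 16.8 in PA1 +/+ cells. Col19a1, Col22a1 and Col23a1 each had 1 of 3 probe sets lower. Col23a1 also had 1 higher, at 3.50 and 2.78 in PA1 -/-, against 2.04 and 2.22 in PA1 +/+ cells, and a probe set of Col4a3, at 24.3 and 23.4 in PA1 -/-, against 5.90 and 2.39 in PA1 +/+ cells, was among the 3 that were higher. Col6a4, Col8a2, Col9a1, Col9a3, Col10a1, Col11a2, Col13a1, Col17a1, Col20a1, Col25a1, Col26a1 and Col4a4 had overlapping groups on every probe set. Detection calls were not used here, and fold changes of such dim probe sets were not tested.

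The machinery that handles collagen chains gave mixed values. Over 44 tested genes of 6 lists the median difference was -0.03, with 18 lower and 15 higher at both numbers (29.3% and 33.9% of all tested genes), and none passed limma (0 also at an unadjusted p under 0.05). Among 17 genes of chain modification and folding the median was -0.14, and 4 were lower and 1 higher without overlap (11.3% and 15.0% of all tested genes). P4ha3, a prolyl hydroxylase subunit, read 80.0 and 149.7 in PA1 -/- cells, against 181 and 150.0 in PA1 +/+ cells. Number 1 held nearly all of that gap. Colgalt1, which adds galactose to hydroxylysine, read 4259 and 3708 in PA1 -/- cells, against 3239.5 and 3056 in PA1 +/+ cells, and Crtap, of the prolyl 3-hydroxylation complex, 4776 and 4461 in PA1 -/-, against 5798 and 5833 in PA1 +/+ cells. Their differences were -0.54 (SE 0.395), 0.34 (SE 0.192) and -0.33 (SE 0.166).

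The other steps of the pathway were mixed. The 10 secretion genes had a median of 0.01, and among them Klhl12, an adaptor for large COPII coats, read 786 and 695 in PA1 -/- cells, against 612 and 534 in PA1 +/+ cells, a difference of 0.37 (SE 0.252). Sec13, a coat subunit, and Mia3, the collagen cargo receptor TANGO1, differed by -0.18 and -0.11. Propeptide cleavage had a median of 0.58 over 5 genes, of which Mep1a, which encodes a meprin protease, read 115 and 95.6 in PA1 -/- cells, against 59.7 and 61.4 in PA1 +/+ cells. Both PA1 +/+ signals of Mep1a lay under the filter boundary of 62.8, so it was tested only through its PA1 -/- signals. Its place among the higher genes and in this median therefore supports nothing. For cross-linking the median was -0.02 over 4 genes, with Loxl4 at 759 and 312 in PA1 -/- cells, against 308 and 214 in PA1 +/+ cells. Collagen receptors had a median of -0.04 over 5 genes, with 2 lower and 2 higher without overlap (11.3% and 15.0% of all tested genes). Ddr1, a collagen-binding tyrosine kinase, differed by 0.57 (SE 0.354), with 1.15 at number 1 and 0.0 at number 2. The endocytic receptor gene Mrc2 differed by -0.43 (SE 0.327), with -0.01 at number 1 and -0.86 at number 2. For the integrin chain gene Itga10 the mean was -0.34 (SE 0.326), with -0.06 at number 1 and -0.61 at number 2. Each of these 3 means came mainly from 1 number. Itgb1, another integrin chain gene without overlap, differed alike at both, by 0.33 at number 1 and 0.32 at number 2 (SE of the mean difference 0.195). Collagen cleavage gave -0.21 over 3 genes, whose groups all overlapped.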

How the data were processed

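Total RNA of 4 samples was hybridised to Affymetrix arrays, 1 array per sample. The deposited intensity values are on a linear scale and come from MAS5, per the submitters' processing notes. Its version and target intensity are not stated in the sources used here. Means over all probe sets but the lowest and highest 2% were 500.0 on every array, so differences are relative to each array's average. Medians ran from 63.2 to 66.4. Precision is limited by having 2 arrays a genotype.

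After 64 controls were left out, 45037 probe sets remained, of which 34945 had 1 gene symbol in the platform annotation, 932 several and 9160 none. All 42 collagen gene identifiers were found in the RefSeq table (GRCm38.p6). Signals were tested as log2(signal + 9.96), the 20th percentile being 9.96. The upper 50% by mean log2 signal, 22519 probe sets, were fitted with limma 3.58.1 in R 4.3.3 (lmFit, eBayes with trend, genotype only, 2 residual degrees of freedom), 2-sided, with Benjamini-Hochberg adjustment over all of them and a threshold of 0.05. P-values come from this fit unless the replicate number is named as a block. Genes were read through their brightest tested probe set. Pathway genes were named as the 3 of each list with the largest difference without overlap, and Itgb1 was added as the remaining receptor gene without overlap. Members, classes, lists and tests were chosen with earlier results of these data known. Alternatives were other scalings, pseudocounts, filters, variance models and probe set rules, the replicate number as a term, and leaving out each array. Promoter sequences are RefSeq's, from GRCm38.p6. Figures were drawn with matplotlib 3.10.9.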

Additional observations from a re-analysis of the deposited data

How the results depend on the processing

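With the replicate number as a block, 447 of 22519 probe sets passed limma at an adjusted p below 0.05 (1.98%), 329 lower and 118 higher in PA1 -/- cells. Collagens gave 6 of 38 probe sets and 3 genes by their brightest probe set, all lower: Col11a1 (-1.66, adjusted p = 0.00274), Col6a2 (-1.31, 0.00311) and Col6a1 (-0.84, 0.0171). The 6 also held a second probe set each of Col11a1 (0.000602) and Col6a2 (0.028) and 1 of Col1a2 (-0.61, 0.0208), while Col18a1 (0.0657) and Col27a1 (0.0547) missed. Deviations from the genotype means correlated at 0.805 between arrays of the same number, but the labels do not say what a number stands for, and 2 pairs cannot settle it. The other settings called 0 probe sets, except that no such count was made for the mean of the probe sets of a gene. The collagen median stayed between -0.41 and -0.25 under the settings that kept all arrays. There the collagen VI median was -0.35 without the filter and the FACIT median -0.19 with the stricter filter. Medians of the cleavage list were -0.17 (quantile), -0.16 (median scaling), -0.24 (no filter) and -0.11 (mean of probe sets). Those of receptors were 0.02 (median scaling), 0.14 (stricter filter) and 0.13 (mean of probe sets), of secretion 0.07 (median scaling) and of propeptide cleavage 0.06 (no filter). Col4a1 was at 0.07 as the mean of its probe sets. Leaving out 1 array gives the genotypes unequal numbers, so the gap between numbers enters, and no other cause of these moves was tested. The collagen median then ran from -0.78 to 0.20, highest without the PA1 -/- array numbered 2. Class medians ran from -1.10 to 0.16 (fibrillar), -0.49 to 0.45 (basement membrane), -1.19 to -0.68 (collagen VI), -1.23 to 0.25 (FACIT) and -0.80 to 0.19 (others), and list medians from -0.24 to 0.20 (folding), -0.12 to 0.19 (secretion), 0.12 to 0.72 (propeptides), -0.47 to 0.56 (cross-linking), -0.10 to 0.02 (receptors) and -0.38 to 0.15 (cleavage). Genes that changed sign in such a fit were Col1a1 (-1.12 to 0.37), Col3a1 (-1.10 to 0.16), Col4a1 (-0.73 to 0.48), Col4a2 (-0.58 to 0.42), Col4a5 (-0.50 to 0.67), Col4a6 (-0.40 to 0.70), Col5a1 (-1.01 to 0.16), Col5a2 (-1.17 to 0.50), Col5a3 (-0.74 to 0.63), Col6a3 (-1.34 to 1.92), Col8a1 (-0.88 to 0.19), Col12a1 (-1.56 to 0.25), Col16a1 (-0.10 to 0.66) and Col27a1 (-0.46 to 2.59). Those that kept theirs were Col1a2 (-0.33 to -0.12), Col2a1 (-2.26 to -0.17), Col6a1 (-0.99 to -0.68), Col6a2 (-1.74 to -0.88), Col7a1 (0.19 to 0.59), Col11a1 (-2.95 to -0.38), Col14a1 (-2.30 to -0.57) and Col18a1 (-1.02 to -0.80).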

Other observations

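The enzymes that cross-link collagen also differed by number, and are given here after their values were seen. Lox, which encodes lysyl oxidase, read 6695 and 2231 in PA1 -/- cells, against 12003 and 3883 in PA1 +/+ cells. It was lower in PA1 -/- cells at both numbers, with differences of -0.84 at number 1 and -0.80 at number 2, and lower at number 2 in both genotypes, as the type V chains were. Loxl1, its paralog in elastic fibres, read 8094 and 1559.7 in PA1 -/- cells, against 6560.0 and 2011 in PA1 +/+ cells, and Loxl3 ran the other way between numbers, at 1326 and 3770.5 in PA1 -/- cells, against 1331 and 3814 in PA1 +/+ cells. Neither Loxl1 nor Loxl3 separated by genotype. Pcolce2, which encodes an enhancer of procollagen trimming, read 2174 and 3672 in PA1 -/- cells, against 669.9 and 2914 in PA1 +/+ cells, the PA1 +/+ array numbered 1 being the low one.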
